A study of Mus musculus with 16 samples.

Results

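The genes described here are 8 that serve the response of the liver to excess sterol: the half-transporters Abcg5 and Abcg8, the exporters Abca1 and Abcg1, the ubiquitin ligase Mylip, the phospholipid-remodelling enzyme Lpcat3, and the oxysterol receptors Nr1h3 (LXR-alpha) and Nr1h2 (LXR-beta). They were taken by symbol from a deposited table of 12618 genes, and all 8 were present. The table holds mRNA sequencing of mouse liver from 8 control CRISPR libraries and 8 Cyp7a1 CRISPR libraries, and all of these mice had eaten a Western diet for 8 weeks, so no library stands for chow feeding. CRISPR is a method of gene editing, and Cyp7a1 encodes the first and rate-limiting enzyme of the classical route from cholesterol to bile acids. The labels state neither strain, age and sex nor the delivery of the editing, nor that each library is a separate animal, and the spread behind each p-value may therefore be partly technical.

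LXR receptors sit on DNA as partners of the retinoid X receptors and switch on their target genes when oxysterols, oxidised forms of cholesterol, bind them. In hepatocytes, targets such as Abcg5 and Abcg8 move sterol into bile, Abca1 loads it onto nascent HDL, Mylip marks lipoprotein receptors for degradation, and Lpcat3 puts polyunsaturated chains into membrane phospholipids. In macrophages, Abca1 and Abcg1 carry cholesterol out of the cell, and the liver holds resident macrophages, the Kupffer cells.

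Cyp7a1 mRNA itself did not fall in the Cyp7a1 CRISPR livers, at 3069 to 5873 normalized counts (median 4892) against 2148 to 5642 in controls (median 3281), a log2 fold change of 0.43 (limma adjusted p = 0.227). A count per gene cannot show whether its coding sequence was cut, so the group is called Cyp7a1-labelled, and each direction below rests on that label. Normalized counts are read counts divided by 1 size factor per library, and whole reads recovered from them came to 13.8 to 27.4 M (M, mega) per library. All 8 hepatocyte markers looked for were in the table, and their summed level was 1582220 to 2311340 normalized counts in controls and 1631350 to 2307430 in Cyp7a1-labelled livers, with 0 of 8 past the threshold in limma (0 at an unadjusted p under 0.05), edgeR and DESeq2. The same held for 0 of 7 sinusoidal endothelial (1 higher and 1 lower before adjustment), 0 of 8 stellate, 0 of 5 cholangiocyte and 0 of 3 lymphocyte and neutrophil markers. In whole liver, fewer cells of a type and less RNA per cell cannot be told apart.

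Abcg5 and Abcg8 are neighbours that point away from each other, and the stretch between them is shown because these were the members that moved together. Of the 8 genes, 7 had a promoter entry in the RefSeq table (GRCm38.p6), and Abcg1 had none. The Abcg5 transcript starts at position 84683011 of chromosome 17 on the minus strand and the nearer of 2 Abcg8 starts lies at 84683121 on the plus strand, 110 bases away. The 109 bases between them (chr17:84683012-84683120, plus strand) are printed 5′ to 3′ with matches to the GATA factor motif AGATAA, here on the reverse strand as TTATCT, in capitals.
Abcg5-Abcg8 intergenic: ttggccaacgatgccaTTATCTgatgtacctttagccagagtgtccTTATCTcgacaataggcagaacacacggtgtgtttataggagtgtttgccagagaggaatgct
Abca1 is shown beside it because its window was the 1 member window with a match, at 3 mismatches, to the LXR-type motif DR4. Its 250 bases before the start (chr4:53159896-53160145, minus strand) have that match in capitals.
Abca1 upstream: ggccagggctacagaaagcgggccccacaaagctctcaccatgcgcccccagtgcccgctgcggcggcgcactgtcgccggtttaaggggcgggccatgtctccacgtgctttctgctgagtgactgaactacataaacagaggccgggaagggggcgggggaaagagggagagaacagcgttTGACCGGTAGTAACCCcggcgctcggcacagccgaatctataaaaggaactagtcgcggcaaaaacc

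Motifs were searched on both strands in windows of 300 bases, from 250 before to 50 after each start, for the 9 windows of the 7 genes and for all 32851 windows in the table. AGATAA without a mismatch occurred in the windows of Abcg5 and Abcg8, which overlap by 209 bases and so hold the same 3 matches, and in 11.2% of all windows. DR4, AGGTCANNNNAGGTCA, with up to 3 mismatches in its fixed letters, occurred in 1 member window, that of Abca1, and in 21.9% of all windows. With up to 2 mismatches it occurred in none of the 9 and in 3.02% of all windows. DR1, AGGTCANAGGTCA, a motif of HNF4-alpha and other receptors that shares its half-sites with DR4, matched with 3 mismatches in Abcg5, Abcg8 and Lpcat3 and in 24.6% of all windows. The DR1 matches of Abcg5 and Abcg8 are the same site, which lies in the bases that their windows share. The LRH-1 half-site CAAGGTCA matched in none of the 9 and in 1.56% of all windows. The limit of 3 mismatches was chosen after 2 gave no match in a member window. A match of this kind describes letters and by itself does not show whether a factor binds there. Sequence outside these windows was not searched, so a window without a match does not show that the gene lacks a site.

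The comparison asks how these genes differ between Cyp7a1-labelled and control livers on the same diet. Of the 8 genes, 2 were lower in Cyp7a1-labelled livers, 0 were higher and 6 did not pass (limma, adjusted p under 0.05 over 12617 genes). Over all genes, 3.05% were called lower, 3.07% higher and 6.12% in either direction. Counts of recovered reads gave the same 2 genes in edgeR and added Abca1 in DESeq2, with 0 higher in either, and 3 lower and 0 higher members had an unadjusted limma p under 0.05. No gene of the 8 had groups free of overlap, against 0.507% of all genes higher and 0.531% lower. The 2 lower genes were Abcg5 and Abcg8, whose proteins join to form the canalicular exporter of cholesterol and plant sterols into bile. The log2 fold changes were below 0 for 7 of the 8, with a median of -0.15 against 0.0034 over all genes.

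**Figure D1:**
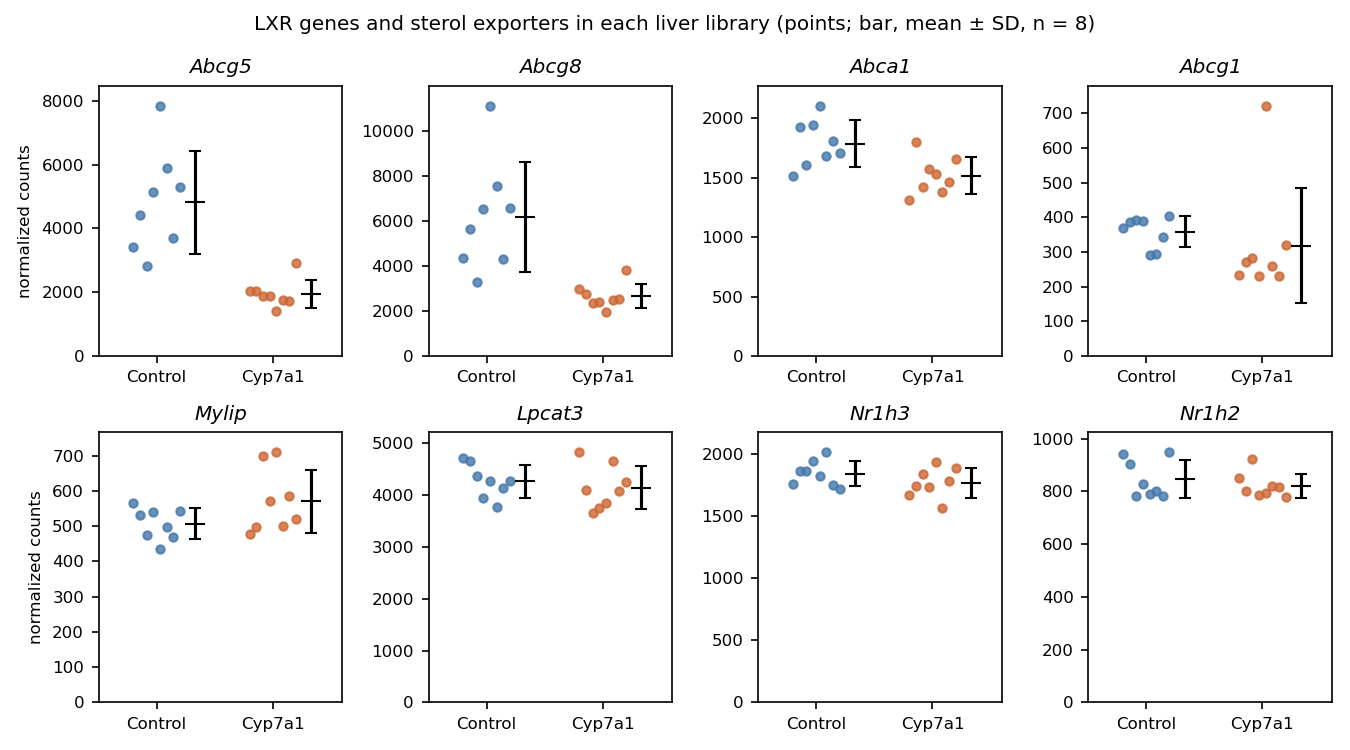
Normalized counts of each gene (vertical axis from 0) in the 8 control and 8 Cyp7a1-labelled libraries, 1 point per library, with mean ± SD as a bar beside each group. For Abcg5, 7 of 8 Cyp7a1-labelled livers lie below the lowest control, while the points of Lpcat3, Nr1h3 and Nr1h2 cover nearly the same range in both groups.

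Abcg5 (ENSMUSG00000040505, chromosome 17, 84658234 to 84683011 on GRCm38, minus strand) had 2817, 4773 and 7837 normalized counts as lowest, median and highest control value, and 1399, 1879 and 2899 in Cyp7a1-labelled livers. All 8 Cyp7a1-labelled livers were below the control mean and 7 below the lowest control, and the ranges met only through Cyp7a1 36 (2899), which lay just above Control 13 (2817). The means were 4811 ± 1603 and 1952 ± 434 (SD, n = 8 each). On the log2(value + 1) scale the difference was -1.26 ± 0.18 (SE), and its 95% interval ran from -1.63 to -0.89 (limma adjusted p = 0.000463; exact permutation, two-sided, p = 0.000311). By size of fall it stood at rank 19 of 12617 genes. Each library gave Abcg5 between 1679 and 7492 reads.

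Abcg8 (ENSMUSG00000024254, chromosome 17, 84676302 to 84700333, plus strand) followed the same order. Its lowest, median and highest values were 3271, 6073 and 11090 normalized counts in controls and 1953, 2519 and 3814 in Cyp7a1-labelled livers. The same libraries marked the ends, Control 13 and Control 20 below and above among controls and Cyp7a1 24 and Cyp7a1 36 in the other group, and again 7 of 8 Cyp7a1-labelled livers were below the lowest control. The means were 6156 ± 2443 and 2659 ± 551 (SD, n = 8 each), and the log2 fold change was -1.14 ± 0.20 (SE, 95% interval -1.55 to -0.73, limma adjusted p = 0.00246, exact permutation p = 0.000311). It ranked 25 by size of fall.

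Abcg5 and Abcg8 kept their calls under every alternative setting run, including each library left out in turn. Their log2 fold changes then ranged from -1.36 to -1.15 and from -1.26 to -1.01. The annotated spans of the genes overlap because the longer Abcg8 transcript starts inside Abcg5, but only 82 exon bases lie in both, 3.02% of the exon length of Abcg5 and 2.19% of that of Abcg8. Whether the counting used strand is not stated, so the origin of reads on these bases is uncertain.

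The pair also varied together inside each group. Across the 8 control livers, log2 Abcg5 and log2 Abcg8 had a Pearson r of 0.995 (exact permutation p = 7.44e-05, adjusted p = 0.00119 over 16 relations) and a Spearman rho of 0.976 (exact permutation p = 0.000397, adjusted 0.00635). Without Control 13 and Control 20, the controls farthest from the median, r was 0.988. Across the 8 Cyp7a1-labelled livers r was 0.959 (exact permutation p = 0.00149, adjusted 0.00794) and rho 0.762 (exact permutation p = 0.0368, adjusted 0.118), and without Cyp7a1 24 and Cyp7a1 36 r was 0.657, so much of that relation rests on these libraries. The ratio of Abcg5 to Abcg8 normalized counts, not corrected for gene length, was 0.796 ± 0.0495 in controls (0.707 to 0.861) and 0.734 ± 0.0433 in Cyp7a1-labelled livers (0.681 to 0.798; SD, n = 8 each). The log2 ratio differed by -0.12 between the groups (exact permutation p = 0.0180, also 0.0180 adjusted over 13 pairs), while the ratios of single libraries overlapped.

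Cell type markers moved with this spread. Control 13, lowest for both exporters, had the lowest summed hepatocyte markers of the controls (1582220 normalized counts) and the highest of the 8 stellate and fibroblast markers (15444.5), and Control 20, highest for both, had the highest hepatocyte sum (2311340) and the lowest stellate sum (6812). In the other group Cyp7a1 24, lowest for both exporters, had the lowest hepatocyte sum (1631350) and the highest stellate sum (14533), while Cyp7a1 36 had the hepatocyte sum next to the highest (2305150) and a stellate sum of 11525. With the mean log2 level of the hepatocyte markers in the model, added after seeing the data, the log2 fold change was -1.39 ± 0.09 for Abcg5 and -1.28 ± 0.12 for Abcg8 (limma adjusted p = 7.68e-08 and 5.14e-06). With the stellate markers instead it was -1.21 ± 0.13 and -1.09 ± 0.15 (limma adjusted p = 3.81e-05 and 0.000271). Alb alone had a control mean of 1380720 normalized counts and so makes up most of the hepatocyte sum. By the mean log2 level of the hepatocyte markers, Control 7 (15.756) lay just below Control 13 (15.763), and Cyp7a1 36 (16.260) was highest of its group. Control 13 also had the highest macrophage marker sum of the controls (19322), so the stellate markers were not alone in this. The part of cell composition in the spread within groups was not tested.

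**Figure D2:**
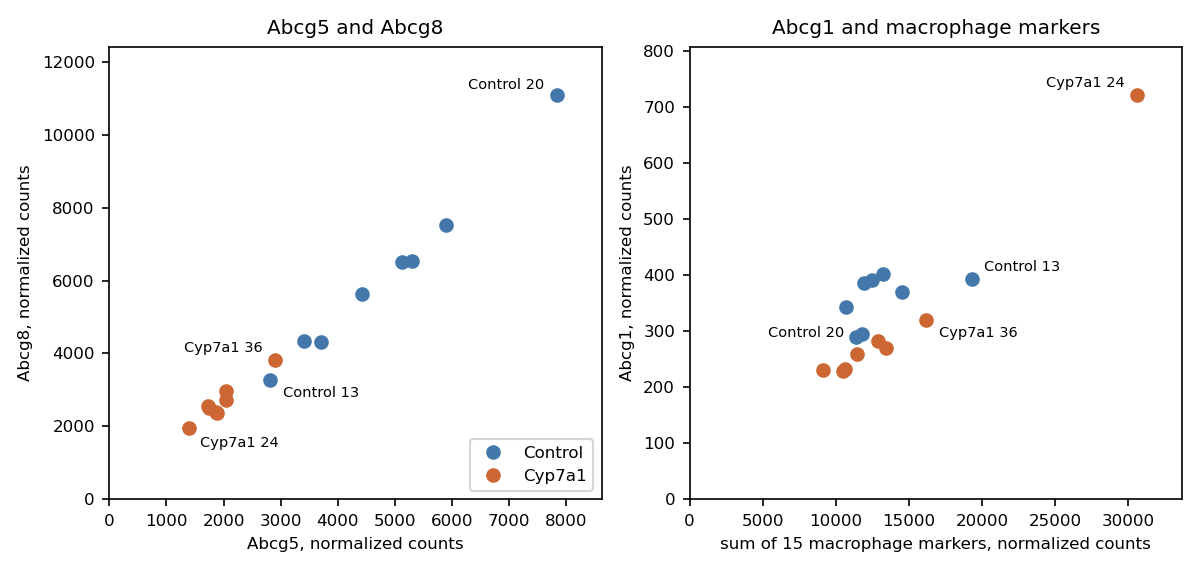
Left, Abcg8 against Abcg5 in normalized counts, with the 16 libraries close to 1 line from Cyp7a1 24 at the lower end to Control 20 at the upper. Right, Abcg1 against the summed normalized counts of 15 macrophage markers, where Cyp7a1 24 stands apart at 721 for Abcg1 and 30635 for the markers.

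Abca1, which hands cholesterol and phospholipid to lipid-poor apolipoprotein A-I, moved far less. Its lowest, median and highest values were 1511, 1760 and 2105 normalized counts in controls and 1314, 1499 and 1799 in Cyp7a1-labelled livers (ENSMUSG00000015243, chromosome 4, 53030787 to 53159895). The ranges overlapped, although 4 Cyp7a1-labelled livers were below the lowest control and 7 below the control mean. The log2 fold change of -0.24 ± 0.07 (SE, 95% interval -0.39 to -0.08) had a limma adjusted p of 0.0635 and an exact permutation p of 0.00963, and so did not pass over all genes. It did pass with equal library totals (adjusted p = 0.0302), with DESeq2 on recovered reads (0.0321), without Control 7 (0.0316) and without Cyp7a1 5 (0.0330), with adjusted p values up to 0.122 over the other left-out libraries. With hepatocyte or stellate markers in the model it passed too (limma adjusted p = 0.0135 and 0.0464).

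Abcg1, which passes cholesterol to mature HDL and is abundant in macrophages, depended on 1 library. Its lowest, median and highest values were 290, 378 and 402 normalized counts in controls and 229, 265 and 721 in Cyp7a1-labelled livers (ENSMUSG00000024030, chromosome 17, 31057675 to 31117988). Cyp7a1 24 held the 721, the next highest was Cyp7a1 36 with 319, and 6 of the 8 were below the lowest control. Over all libraries the log2 fold change was -0.27 ± 0.18 (SE, 95% interval -0.66 to 0.11, limma adjusted p = 0.438, exact permutation p = 0.205). Without Cyp7a1 24 it was -0.46 with an adjusted p of 0.00760, a change that passes the threshold. On recovered reads the estimate over all libraries was smaller, -0.17 by edgeR (adjusted p = 0.702) and -0.17 by DESeq2 (adjusted p = 0.715).

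Macrophage markers were high in the same library, and so were those of other non-hepatocyte types. The 15 markers summed to 10700 to 19322 normalized counts in controls (median 12209) and to 9104 to 30635 in Cyp7a1-labelled livers (median 12190), and no marker was at 0 in any library. Cyp7a1 24 had the 30635, against at most 16196 in the other 7 of its group, and held the highest value of that group for 11 of the 15. The scavenger receptor Marco had 3916 normalized counts there against a group median of 124, Adgre1 (F4/80) 3537 against 464, and Cd5l, a secreted macrophage protein and itself an LXR target, 8124 against 1977. The Kupffer cell lectin Clec4f had 1812, near the group median of 1798. Cyp7a1 24 also had the highest sums of all libraries for cholangiocyte markers (3912 normalized counts) and for lymphocyte and neutrophil markers (1259), besides the stellate and hepatocyte extremes of its group given above. Of the 15 markers 0 passed the threshold between the groups in limma (0 at an unadjusted p under 0.05), edgeR and DESeq2. The part of these markers in the Abcg1 difference was not tested beyond the values that follow.

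Within the Cyp7a1-labelled group, log2 Abcg1 rose with the mean log2 level of these markers, with r = 0.973 (exact permutation p = 0.000446, adjusted 0.00357) and rho = 0.905 (exact permutation p = 0.00456, adjusted 0.0365). It was still 0.821 without Cyp7a1 24 and Cyp7a1 36. Among controls r was 0.587 (exact permutation p = 0.0926, adjusted 0.174) and rho 0.643 (exact permutation p = 0.0962, adjusted 0.256), and r was 0.873 without Control 13 and Control 7. With the marker mean in the model, an alternative added after seeing the data, the log2 fold change of Abcg1 was -0.33 ± 0.11 (SE, limma adjusted p = 0.0774), and those of Abcg5 and Abcg8 were -1.23 ± 0.15 and -1.10 ± 0.17. Abca1 had no such relation past the threshold, with r of -0.66 in controls (exact permutation p = 0.0678, adjusted 0.174) and 0.26 in Cyp7a1-labelled livers (exact permutation p = 0.535, adjusted 0.713).

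Mylip, also called IDOL, was the 1 member with an estimate above 0. It had 436, 515 and 566 normalized counts as lowest, median and highest control value and 477, 545 and 709 in Cyp7a1-labelled livers (ENSMUSG00000038175, chromosome 13, 45389742 to 45412022). The upper end was set by Cyp7a1 24 (709) and Cyp7a1 17 (699), and 4 libraries exceeded the highest control while none was below the lowest. The log2 fold change was 0.16 ± 0.09 (SE, 95% interval -0.02 to 0.34, limma adjusted p = 0.318, exact permutation p = 0.108), and without Control 20 and Cyp7a1 24 it was 0.08.

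Lpcat3 was among the most abundant members and covered nearly the same range in both groups. Its values were 3772, 4267 and 4704 normalized counts in controls and 3655, 4084 and 4819 in Cyp7a1-labelled livers (ENSMUSG00000004270, chromosome 6, 124663027 to 124704418). The log2 fold change was -0.04 ± 0.06 (SE), and its 95% interval of -0.18 to 0.09 leaves room for a fold of 0.885 to 1.06 (limma adjusted p = 0.759).

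The receptors themselves differed little between the groups. Nr1h3 had 1723, 1844 and 2014 normalized counts in controls and 1568, 1765 and 1938 in Cyp7a1-labelled livers (ENSMUSG00000002108, chromosome 2, 91184061 to 91202834), with a log2 fold change of -0.06 ± 0.05 (SE, 95% interval -0.16 to 0.04, limma adjusted p = 0.539). Nr1h2 had 782, 816 and 948 in controls and 780, 809 and 922 in Cyp7a1-labelled livers (ENSMUSG00000060601, chromosome 7, 44549616 to 44553951), with a log2 fold change of -0.04 ± 0.05 (SE, 95% interval -0.15 to 0.07, limma adjusted p = 0.720). For both receptors the groups overlapped over most of their range, and these intervals bound the change of either to a fold between 0.895 and 1.05. Messenger RNA levels say nothing of receptor activity.

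How far the exporter pair moved relative to the other members was measured within libraries, on the log2 ratio of each of the 2 genes to each of the other 6. These 2 were the members called above and they varied together. The p-values of the 12 ratios are therefore neither independent of each other nor separate from those calls. All 12 ratios fell in the Cyp7a1-labelled group, with differences of -1.42 to -0.87 (log2; two-sided exact permutation, adjusted p of 0.000673 to 0.0131 over 13 pairs). Abcg5 fell relative to Abca1 by 1.02, the log2 ratio going from 1.37 ± 0.38 to 0.34 ± 0.29 (SD, n = 8 each, exact permutation p = 0.000311, adjusted 0.000673). Relative to Lpcat3 it went from 0.11 ± 0.53 to -1.11 ± 0.29 (exact permutation p = 0.000311, adjusted 0.000673). The smallest difference was that of Abcg8 to Abcg1, -0.87 (exact permutation p = 0.0121, adjusted 0.0131), and it was -0.62 without Cyp7a1 24. Since the ratio is taken within a library, a scaling factor per library barely touches it.

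**Figure D3:**
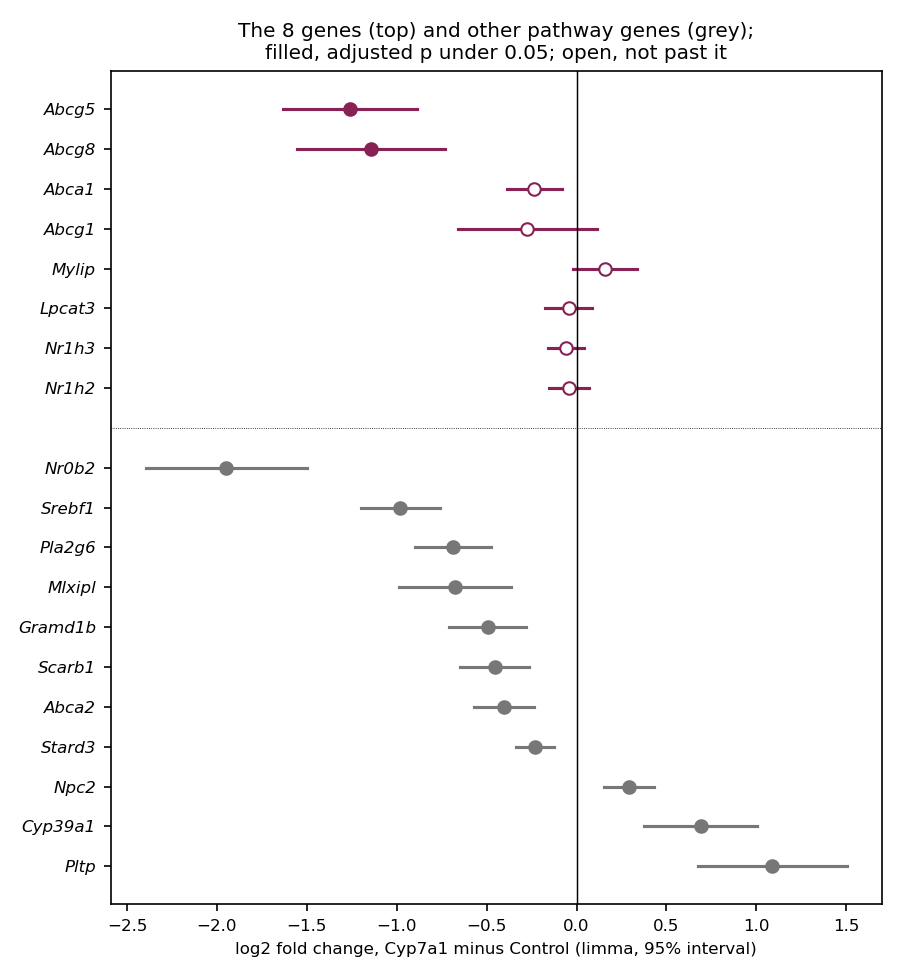
Log2 fold change of Cyp7a1-labelled minus control livers (horizontal axis, points) with 95% limma intervals (lines) for the 8 genes above the dotted line and 11 other pathway genes, shown because they passed the threshold, below it. Filled points passed the threshold, and Abcg5 (-1.26) and Abcg8 (-1.14) are the only filled points among the 8.

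Spread between livers also separated the exporter pair from the other members in controls. In controls the coefficient of variation was 33.3% for Abcg5 and 39.7% for Abcg8, against 5.49% for Nr1h3, the least variable, and 12.5% for Abcg1, the most variable of the other 6. In Cyp7a1-labelled livers it was 20.7% for Abcg8 and 52.0% for Abcg1, where Cyp7a1 24 stands apart. The highest control had 2.78 times the Abcg5 of the lowest and 3.39 times the Abcg8, but only 1.17 times the Nr1h3. The libraries at the ends of the exporters' spread are also those at the ends of the hepatocyte and stellate marker sums among controls.

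Levels of different genes were compared as normalized counts per kb of annotated exon. In controls the order was Abcg5 (1774 ± 591), Abcg8 (1642 ± 652), Lpcat3 (1305 ± 97.2), Nr1h3 (733 ± 40.3), Nr1h2 (253 ± 21.3), Abca1 (173 ± 19.0), Mylip (157 ± 13.9) and Abcg1 (49.2 ± 6.14; all SD, n = 8). Abcg8 exceeded Lpcat3 in 5 of 8 control livers and Abca1 exceeded Mylip in 6 of 8, so these neighbours were within their spread, while Lpcat3 exceeded Nr1h3 in 8 of 8. In Cyp7a1-labelled livers Lpcat3 came first with 1268 ± 128, above Abcg5 in 8 of 8. Abcg5 (720 ± 160), Abcg8 (709 ± 147) and Nr1h3 (704 ± 47.8) then lay together, each above its neighbour in 4 of 8 libraries. The LXR-alpha transcript was above that of LXR-beta in 8 of 8 livers of either group.

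**Figure D4:**
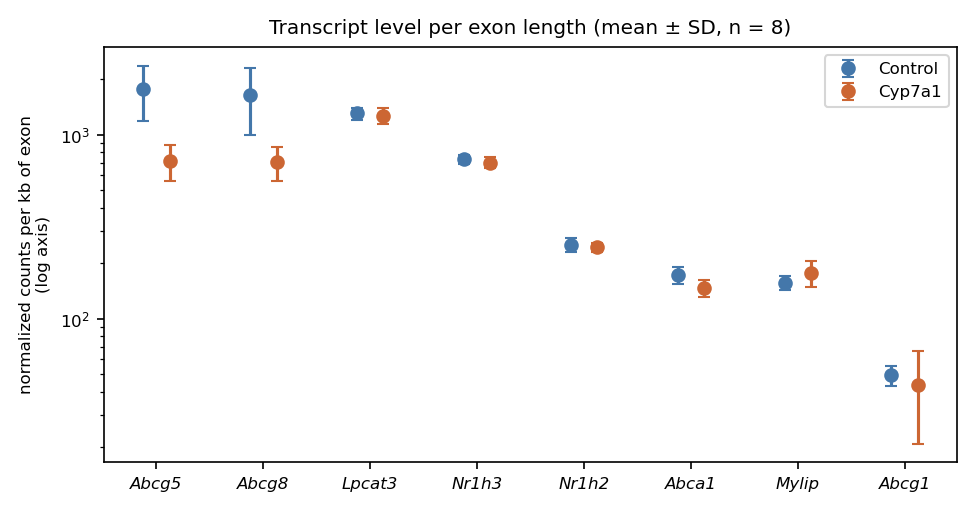
Normalized counts per kb of exon (log axis) for the 8 genes, mean ± SD over 8 libraries per group, in the order of the control means. Abcg5 and Abcg8 drop from the top of the order to the level of Nr1h3 in Cyp7a1-labelled livers, and the other means stay close to their control values.

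Other genes that LXR induces did not share 1 direction. Of 11 such genes tested, 2 were lower and 1 higher, and the median log2 fold change was -0.09. Srebf1, the gene of SREBP-1 and a driver of fatty acid synthesis, had 9089 to 17100 normalized counts in controls and 4768 to 6138 in Cyp7a1-labelled livers. Its ranges did not overlap, as was the case for 0.531% of all genes in this direction, and its log2 fold change was -0.98 ± 0.10 (SE, limma adjusted p = 3.23e-05). Mlxipl (ChREBP), the glucose-responsive activator of lipogenesis, fell by 0.68 ± 0.15, with a limma adjusted p of 0.0118. Pltp, which transfers phospholipid between lipoproteins and is also induced by the bile acid receptor FXR, rose by 1.09 ± 0.20 on the log2 scale (limma adjusted p = 0.00374), from 1766 ± 581 to 3738 ± 1088 normalized counts (SD, n = 8 each). Among the 8 that did not pass, Scd1 had a log2 fold change of -0.29 ± 0.19, Apoe of -0.09 ± 0.13 and Fasn of -0.02 ± 0.25.

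Srebf1 and Abcg5 were highest in the same control. Control 20 had 17100 normalized counts of Srebf1, and across controls r was 0.800 (exact permutation p = 0.0102, adjusted 0.0409) and rho 0.786 (exact permutation p = 0.0279, adjusted 0.112). Without Control 20 and Control 25 r was 0.402, so the relation rests on those libraries, and in Cyp7a1-labelled livers it was 0.299 (exact permutation p = 0.485, adjusted 0.706; rho 0.143, exact permutation p = 0.752, adjusted 0.802).

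Sqle, the squalene epoxidase of cholesterol synthesis and a target of SREBP-2, ran the other way in estimate. Its r with Abcg5 was -0.64 in controls (exact permutation p = 0.0836, adjusted 0.174) and -0.70 in Cyp7a1-labelled livers (exact permutation p = 0.0758, adjusted 0.174), and the rho values were -0.83 (exact permutation p = 0.0154, adjusted 0.0820) and -0.43 (exact permutation p = 0.299, adjusted 0.532). None passed after adjustment. Cyp7a1 36, the liver with the most Abcg5 of its group, had 147 normalized counts of Sqle, the lowest of its group and inside the control range of 11.1 to 387.

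Among 11 partners and coregulators of LXR, 0 were higher and 0 lower by limma, edgeR or DESeq2, and the median log2 fold change was -0.07. Before adjustment 4 were lower and 0 higher in limma, and the smallest p was that of the coactivator Ncoa1 (log2 fold change -0.19 ± 0.06 SE, limma adjusted p = 0.0841; 0.0295 with hepatocyte markers in the model). Rxra, the main retinoid X receptor of liver, had -0.07 ± 0.06 (limma adjusted p = 0.561). Of 7 other regulators linked to the Abcg5 and Abcg8 promoter or to bile acid sensing, 1 was lower and 0 higher. That was Nr0b2 (SHP), a repressor induced by FXR, which changed by -1.95 ± 0.21 (limma adjusted p = 4.25e-05) without overlap between the groups. Factors linked to the stretch between Abcg5 and Abcg8 did not pass, with 0.02 ± 0.10 for Hnf4a, 0.03 ± 0.08 for Nr5a2 (LRH-1), -0.22 ± 0.09 for Gata4 and 0.25 ± 0.12 for Gata6. Nr0b2 had no relation with Abcg5 past the threshold within groups, with r of -0.0062 in controls (exact permutation p = 0.989, adjusted 0.989) and -0.096 in Cyp7a1-labelled livers (exact permutation p = 0.831, adjusted 0.949). In controls rho was 0.310 (exact permutation p = 0.462, adjusted 0.660). Without Control 16 and Control 38 r in controls was 0.599, so the value near 0 rests on those libraries.

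Among 6 tested enzymes that make or clear oxysterols, the ligands of LXR, 1 was higher and 0 lower. Cyp39a1, which hydroxylates 24-hydroxycholesterol, rose by 0.69 ± 0.15 on the log2 scale (limma adjusted p = 0.0114). Cyp27a1, the mitochondrial sterol 27-hydroxylase, had 0.17 ± 0.11 and Cyp7b1, which clears 25- and 27-hydroxycholesterol, -0.28 ± 0.25, and neither passed.

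Genes of sterol transfer, biliary lipid export and HDL moved both ways, with 3 lower and 1 higher of 15 tested and a median of 0.0012. Scarb1, the HDL receptor, changed by -0.46 ± 0.09 (SE, limma adjusted p = 0.00780). Gramd1b, a carrier of cholesterol from plasma membrane to endoplasmic reticulum, changed by -0.49 ± 0.10 (limma adjusted p = 0.00889) without overlap between the groups, and Stard3, an endosomal sterol carrier, by -0.23 ± 0.05 (limma adjusted p = 0.0107). Npc2, which takes cholesterol out of lysosomes, rose by 0.29 ± 0.07 (limma adjusted p = 0.0151), a call that was lost with equal library totals (0.0788). Among other canalicular exporters, limma log2 fold changes short of the threshold were 0.04 ± 0.06 for the phospholipid floppase Abcb4 and -0.06 ± 0.11 for the bile salt pump Abcb11 and -0.22 ± 0.07 for the xenobiotic exporter Abcg2 (adjusted p = 0.0811), which DESeq2 called lower. Of 10 further ABC transporters of groups A and G, Abcg2 among them, limma and edgeR called 1 lower and 0 higher, namely Abca2, a lysosomal transporter, with -0.40 ± 0.08 (limma adjusted p = 0.00712). DESeq2 called 2 lower, Abca2 and Abcg2.

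Srebf2, the gene of SREBP-2 and a driver of cholesterol synthesis, rose by 0.55 ± 0.09 on the log2 scale (limma adjusted p = 0.00225). Beside Lpcat3, 1 of 8 tested phospholipid-remodelling genes was lower and 0 higher. Pla2g6, a calcium-independent phospholipase, had 2757 ± 374 normalized counts in controls and 1722 ± 281 in Cyp7a1-labelled livers, without overlap, and its log2 fold change was -0.69 ± 0.10 (limma adjusted p = 0.000652).

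The genes whose variation between livers was most like that of Abcg5 and Abcg8 were Tfdp2, Lrig3, Amdhd1, Adrb3 and Fech, by the mean Pearson r over 16 libraries after subtracting group means. The mean r was 0.948 for Tfdp2 and 0.932, 0.921, 0.920 and 0.918 for the other 4 in that order. These values were picked as the highest among genes with a mean of at least 50 and carry no test. Members and genes with predicted or identifier-only symbols were left out of that ranking. None of the 5 passed between the groups, with log2 fold changes of -0.11 ± 0.10 for Tfdp2, -0.24 ± 0.10 for Lrig3, -0.21 ± 0.10 for Amdhd1, 0.15 ± 0.23 for Adrb3 and -0.16 ± 0.06 for Fech (SE; limma adjusted p of 0.617, 0.173, 0.241, 0.782 and 0.104).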

How the data were processed

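The authors deposited normalized counts, a signal that per its values is the read count of a gene divided by 1 size factor per library, for 12618 genes in 16 libraries. Tools named in the submitters' processing notes are STAR 2.7.11a, Trim Galore 0.6.10, featureCounts, DESeq2 and R 3.6.3, and the build is mm10. The notes used here state neither annotation nor strand setting nor how genes were chosen. In each library 99.94% to 99.99% of values were whole multiples of the value of 1 read (tolerance 0.05 reads).

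Values were tested with limma 3.58.1 (R 4.3.3, trend) as log2(value + 1), and p-values were adjusted by Benjamini-Hochberg across all 12617 genes tested (threshold 0.05). This scale understates changes of low genes. Ccne2, with text in 1 cell, was left out. Single values were tested by exact permutation over 12870 assignments and correlations over 40320 pairings. The models were checked on simulated data.

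Named genes are the 8 members, Cyp7a1, the 5 genes most alike, and from each list up to 4 genes past the threshold with the smallest p, or 2 where none passed; others are named for their role, and some are not reported here. Members and lists were chosen with earlier results of these data known. Alternatives were each library left out, the pair Control 20 and Cyp7a1 24 left out, equal totals, quantile normalization, array weights, a pseudocount of 8 in place of 1, a minimum mean of 50 or none in place of 10 (which removed no gene), and edgeR 4.0.16 or DESeq2 1.42.0 on recovered reads. The mean log2 level of macrophage, hepatocyte or stellate markers as a covariate was added later. Exon lengths and gene coordinates are those of GENCODE M21 (GRCm38), 1-based.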

Additional observations from a re-analysis of the deposited data

Results flagged for a closer look

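Abcg1 in Cyp7a1 24 had 721 normalized counts, far from the other 7 libraries of its group by Dixon's 95% criterion on the log2 scale (gap over range 0.711). It was 1 of 16 groups of 8 looked at, and chance gives about 0.8. The summed macrophage markers of that library were 30635 normalized counts, and their part in the Abcg1 value was not tested.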

How the results depend on the processing

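No paired analysis was possible because the control and Cyp7a1-labelled libraries share no replicate numbers. Abcg5 and Abcg8 kept their direction and call, and Mylip, Lpcat3, Nr1h3 and Nr1h2 stayed short of the threshold in the same direction, under every alternative run. Abca1 passed with equal totals (-0.24), with DESeq2 (-0.24) without Control 7 or Cyp7a1 5 and with hepatocyte or stellate markers in the model, and ranged from -0.27 to -0.20 over left-out libraries. Abcg1 ranged from -0.46 to -0.22 over left-out libraries, passing without Cyp7a1 24, and was -0.50 without the pair Control 20 and Cyp7a1 24 (adjusted p = 0.00318) and -0.17 by edgeR and by DESeq2. Leaving out 1 library gave 230 to 399 higher and 245 to 414 lower genes of all genes, the fewest without Cyp7a1 28; 256 were lower without Control 16. The cause was not tested. DESeq2 called 548 higher and 573 lower. With hepatocyte markers in the model 761 genes were higher and 794 lower, 14 pathway genes of the lists were lower in place of 9, and Abca1 was -0.27; with stellate markers Abca1 was -0.22.

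Correlations of 8 libraries moved most. Without the 2 farthest libraries, r was 0.657 for Abcg5 with Abcg8 in Cyp7a1-labelled livers, 0.402 and -0.29 for Srebf1 with Abcg5 in controls and Cyp7a1-labelled livers, 0.599 for Nr0b2 with Abcg5 and 0.206 for Abca1 with Abcg1 in controls, -0.22 for macrophage markers with Abca1 in controls, and 0.102 and -0.11 for these markers with Nr1h3 in controls and Cyp7a1-labelled livers. Spearman rho was 0.762, 0.786, 0.310 and 0.143 for Abcg5 with Abcg8 in Cyp7a1-labelled livers and, in controls, Srebf1 with Abcg5, Nr0b2 with Abcg5 and macrophage markers with Nr1h3. Spp1, a cholangiocyte marker, went from 0.18 to -0.12 without the pair and did not pass. The fewest reads of a member in 1 library were 212, for Abcg1. Filters, array weights, edgeR and DESeq2 do not apply to the ratios between members.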
